A study of Mus musculus with 24 samples.

Results

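Expression in depolarized mouse cortical neurons in which Smarcc2 had been knocked out and a Smarcc2 carrying the S586A substitution added back was compared with that in depolarized neurons carrying a non-targeting guide RNA (NT). The 4 libraries were chosen by their labels: 2 of the S586A group and 2 of the NT group, of 24 libraries in the series. All were primary neurons grown from the cortex of mouse embryos at embryonic day 16.5 and harvested after 18 days in vitro. All 4 cultures had been silenced overnight with 1 µM tetrodotoxin, a sodium channel blocker, and 100 µM D-AP5, an NMDA receptor blocker, and then received 50 mM KCl for 30 min. Depolarized knockout neurons with an empty vector (3 libraries) or with wild-type Smarcc2 added back (WT, 3 libraries) served for side-by-side values. Resting neurons of the same age entered where stated: NT (2 libraries) and knockout with vector (3), WT (2) or the S586E substitution (3) added back. The labels of the NT libraries name neither a vector nor an added-back protein, so the guide and the construct changed together between the groups and cannot be told apart. No resting S586A library was analysed here, so the comparison describes levels after KCl and not the response to it.

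Smarcc2 encodes a core scaffold subunit of the BAF (SWI/SNF) family of chromatin remodelling complexes, which use ATP to move nucleosomes and so set the access of transcription factors to DNA. Its paralog Smarcc1 occupies the same position in the complex, and neurons use a subunit set of their own. Depolarization with KCl opens voltage-gated calcium channels and induces early-response genes such as Fos, Npas4 and Arc within minutes. Alanine in place of serine removes the hydroxyl group that a kinase can phosphorylate, and glutamate is commonly used to imitate a phosphorylated serine.

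The codon behind the name S586A was read from the Smarcc2 transcripts of GENCODE M21 on build GRCm38, to show which base triplet the substitution refers to. The codon at the position that the name gives, counted from the start codon of each transcript, is shown in capitals, with its flanks in lower case, 5′ to 3′ on the plus strand.
Smarcc2-202: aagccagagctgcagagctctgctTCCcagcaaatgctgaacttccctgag
Smarcc2-201 and Smarcc2-203: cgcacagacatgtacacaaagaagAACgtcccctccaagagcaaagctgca
In Smarcc2-202, of 1130 coding codons, the codon at that position is TCC for serine, at chr10:128482095-128482097 in an exon. In Smarcc2-201 (1099 codons) and Smarcc2-203 (1213 codons) it is AAC for asparagine, at chr10:128482188-128482190, and the serine codon of Smarcc2-202 is number 555. Of these transcripts, Smarcc2-202 is thus the one with a serine at the position named. Which cDNA the added-back constructs carried is not given in the sources used here.

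The 4 libraries held 21262030 and 19890849 estimated counts in NT and 19448891 and 18379962 in S586A, within the 14510199 to 24024959 of the 20 libraries of the same culture age. Per the labels' protocols the cortex of each embryo was 1 biological replicate. Levels below are CPM, the counts of a gene relative to the TMM-normalised total of its library, and fold changes are log2 ratios of S586A over NT with their standard errors (SE). A gene was called at a Benjamini-Hochberg adjusted p under 0.05 in edgeR's quasi-likelihood test over 20940 genes, with the spread shared by 8 groups. A permutation over 2 against 2 libraries alone could not give a two-sided p below 0.333. The pan-neuronal markers were abundant in all 4 libraries, summing to 4857 and 5378 CPM in NT and 4313 and 4617 CPM in S586A. NT replicate 2 stood apart from NT replicate 1 in markers of dividing and glial cells and in early-response genes, as given below with those lists.

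The knocked-out and added-back gene itself comes first. Smarcc2 (gene ID ENSMUSG00000025369.15; chromosome 10, 128459248 to 128490482, plus strand) was at 274 and 283 CPM in NT and at 1340 and 1303 CPM in S586A. Both S586A libraries lay far above both NT libraries, and the counts behind these levels ran from 5298 to 26216 per library. The mean of S586A was 1322 ± 25.9 CPM (SD, n = 2), a rise of 4.75-fold over the 278 ± 6.5 CPM (SD, n = 2) of NT. The log2 fold change was 2.25 (SE 0.158, adjusted p = 4.64e-07, edgeR). Depolarized knockout neurons with vector were at 49.1, 47.5 and 59.96 CPM, and those with WT added back at 895, 737 and 1089 CPM. The S586A neurons thus held more Smarcc2 RNA than NT neurons.

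The transcript makeup of Smarcc2 also differed. Smarcc2-202 took 59.2% and 55.8% of the estimated counts of the gene in NT, and 1.33% and 2.06% in S586A. Smarcc2-203 took 16.01% and 15.7% in NT and 63.5% and 61.0% in S586A, and Smarcc2-201 took 23.7% and 27.1% against 28.6% and 28.8%. The WT addback libraries resembled those of S586A, with 57.4% to 64.4% in Smarcc2-203. Most of the counts in S586A were thus assigned to transcripts that have asparagine at the position named, and whether the construct was numbered along another transcript was not tested. The shares are assignments among transcripts that overlap in most of their sequence, and the added-back RNA itself was not among the reference transcripts named in the files.

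**Figure D1:**
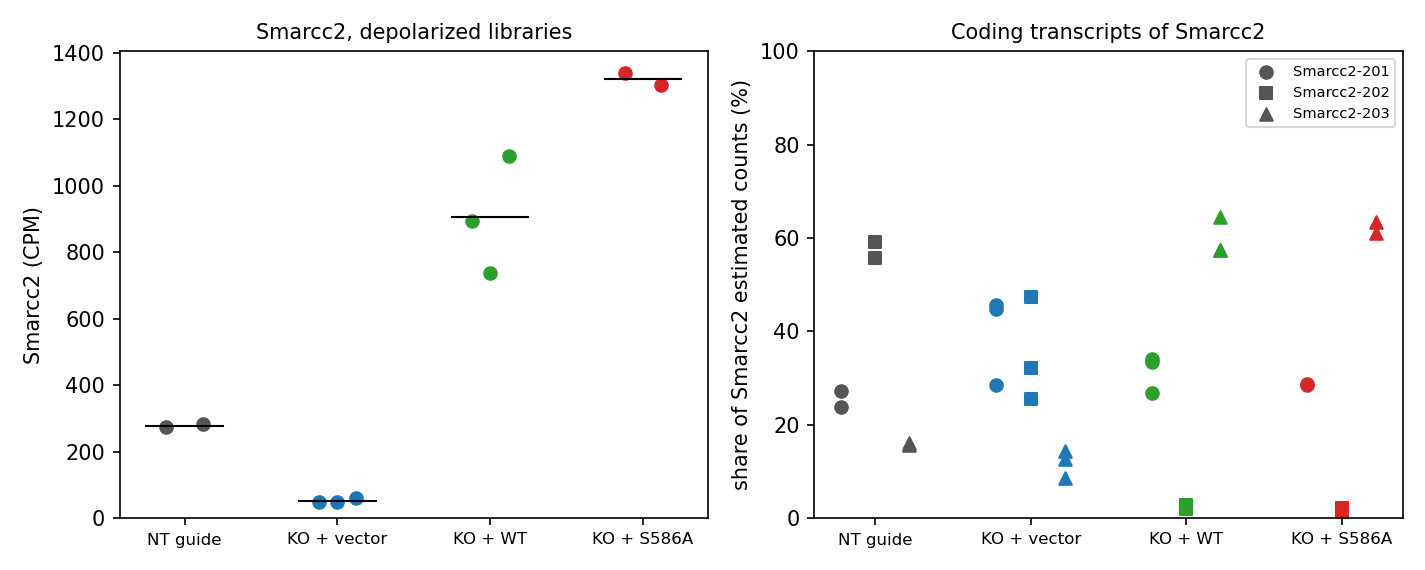
The left panel plots Smarcc2 in CPM for each depolarized library, with a line at the group mean, for NT, knockout (KO) with vector, KO with WT and KO with S586A. The right panel plots the share of the estimated counts of Smarcc2 in each of 3 coding transcripts. S586A lies at 1340 and 1303 CPM against 274 and 283 CPM in NT, and Smarcc2-203 replaces Smarcc2-202 as the leading transcript in both addback groups.

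Smarcc2 was the only one of 30 BAF-type subunit genes to be called, with all 30 tested. Of the list, 5 had an unadjusted p under 0.05, Smarcc2 included, where 11.8% of all genes tested did. The median log2 fold change of the list was 0.01, beside -0.01 over all genes tested. Smarcc1, the paralog, was at 81.8 and 80.9 CPM in NT and 85.9 and 87.7 CPM in S586A (log2 fold change 0.09, adjusted p = 0.738, edgeR). Its S586A libraries lay just above those of NT, by less than the test resolved. The remodelling ATPase Smarca2 had a log2 fold change of -0.34 (unadjusted p = 0.0105, adjusted p = 0.239), and Smarca4, the other ATPase, of -0.03. The neuronal subunit Actl6b was at 0.24 (unadjusted p = 0.0140, adjusted p = 0.271).

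Across the transcriptome, 90 of 20940 genes were called (0.43%), 40 higher in S586A (0.191%) and 50 lower (0.239%). At an unadjusted p under 0.05, 2472 genes (11.8%) passed, 1168 higher (5.58%) and 1304 lower (6.23%). The libraries of the 2 groups did not overlap for any of the 90, as for 42.4% of all genes tested. The rises and falls differed in kind: 25 of the 40 rises were processed pseudogenes, whereas 46 of the 50 falls were protein-coding genes. Most falls were small, with 8 of 50 reaching a log2 fold change of -1, and 28 of the 40 rises reached 1. The count rested on single libraries. Without NT replicate 2, 4 genes were called (Smarcc2, Gm9644, Gm5643 and Gm12912) and no fall, without S586A replicate 2, 7 genes and no fall, and without NT replicate 1, 44 genes. Fitting only the groups compared called 12 genes, of which 8, all rises, were among the 90. DESeq2 called 334, of which 87 were among the 90.

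Among protein-coding genes, 14 of 15580 rose. Pidd1, the scaffold of a complex that activates caspase-2 and a target of p53, was at 5.07 and 5.02 CPM in NT and 10.02 and 16.03 CPM in S586A. Both S586A libraries were above NT, but they differed between themselves more than those of NT did. Its log2 fold change was 1.36 (SE 0.233, adjusted p = 0.0125, edgeR).

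Derl3, a membrane protein of the pathway that exports misfolded proteins from the endoplasmic reticulum, was at 35.5 and 25.3 CPM in NT and 62.6 and 56.0 CPM in S586A. The groups were well separated (log2 fold change 0.96, SE 0.169, adjusted p = 0.0140, edgeR). Ssr4, a subunit of the translocon-associated complex, was at 24.4 and 25.7 CPM against 33.3 and 41.8 CPM (0.58, adjusted p = 0.0237). Gmppb, which makes the mannose donor of glycosylation, was at 10.1 and 8.32 CPM in NT and 16.9 and 14.8 CPM in S586A (0.78, adjusted p = 0.00982). None of the 3 passed without NT replicate 2 or with only the groups compared (lowest adjusted p = 0.147). Gmppb also missed the threshold without S586A replicate 1 (adjusted p = 0.0560), and Derl3 and Ssr4 without S586A replicate 2 (0.139 and 0.414). On the list of stress and heat-shock genes, 0 of 20 were called, and the median was 0.18. An unadjusted p under 0.05 was found for 3 (edgeR), beside 11.8% of all genes tested. Hspa5, the chaperone of the endoplasmic reticulum, was at 315 and 233 CPM in NT and 428 and 400 CPM in S586A (0.60, unadjusted p = 0.0303, adjusted p = 0.361).

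The remaining named rises were close to 1.5-fold. Nr3c1, the glucocorticoid receptor, was at 47.0 and 42.4 CPM in NT and 68.5 and 63.5 CPM in S586A (log2 fold change 0.56, SE 0.111, adjusted p = 0.0321, edgeR). Rps3, a protein of the small ribosomal subunit, was at 125 and 118 CPM against 177 and 184 CPM (0.57, adjusted p = 0.0133). In both genes the replicates of a group lay close together relative to the gap. Neither passed with only the groups compared (adjusted p = 0.158 and 0.134, edgeR), nor did the rises named next. Nr3c1 was at 0.43 with effective-length offsets (adjusted p = 0.362, edgeR). The porphyrin transporter Abcb6 (0.62), the splicing factor Srsf9 (0.60), the LIM-domain protein Crip2 (0.59) and the electron-transfer flavoprotein subunit Etfb (0.58) rose as well, with adjusted p from 0.0352 to 0.0484. Lmnb2, a lamin of the nuclear envelope (0.54), Hmgb3, a chromatin protein (0.52), and Rpl13a, of the large ribosomal subunit (0.45), complete the 14. These last 3 fell outside the rule for named genes and were named after their values were seen.

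The largest falls among named genes were in lowly expressed genes. Dock5, an activator of the GTPase Rac, was at 1.61 and 2.61 CPM in NT and 0.613 and 0.347 CPM in S586A (log2 fold change -2.11, SE 0.441, adjusted p = 0.0416, edgeR). Dhrs9, a short-chain dehydrogenase that acts on retinoids and steroids, was at 4.64 and 5.71 CPM against 2.61 and 1.10 CPM (-1.47, adjusted p = 0.0416). Il10rb, a receptor subunit shared by cytokines of the interleukin-10 family, was at 2.46 and 2.03 CPM against 0.818 and 0.810 CPM (-1.46, adjusted p = 0.0487). Each of these 3 was lower in both S586A libraries than in either NT library, as the naming rule required. With the length-trend offsets described below their log2 fold changes were -1.90, -1.37 and -1.46 (adjusted p = 0.102, 0.0753 and 0.0753, edgeR). Plekhd1 was at 4.60 and 4.06 CPM against 1.79 and 1.39 CPM (-1.44, adjusted p = 0.0352).

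Lrp1, a large endocytic receptor of the low-density lipoprotein receptor family (chromosome 10, 127538161 to 127621148), was at 655 and 818 CPM in NT and 439 and 373 CPM in S586A. Its levels did not overlap, as the naming rule required, and the mean was 44.9% lower (log2 fold change -0.86, SE 0.119, adjusted p = 0.00323, edgeR). Tns1, tensin, which ties integrins to actin, was at 34.2 and 35.2 CPM in NT and 18.5 and 13.1 CPM in S586A (-1.13, SE 0.186, adjusted p = 0.00991). Tmod1, which caps the pointed ends of actin filaments, was at 20.5 and 27.9 CPM against 12.1 and 10.4 CPM (-1.11, adjusted p = 0.0449). Without NT replicate 2 the changes of Lrp1, Tns1 and Tmod1 were -0.69, -1.12 and -0.87 and did not pass (adjusted p = 0.130, 0.165 and 0.478).

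Tanc1, a postsynaptic scaffold, was at 67.5 and 68.5 CPM in NT and 43.7 and 34.4 CPM in S586A (-0.80, adjusted p = 0.0156, edgeR). Shisa6, an auxiliary subunit of AMPA receptors, was at 28.0 and 27.9 CPM against 17.9 and 13.9 CPM (-0.81, adjusted p = 0.0352), and Igsf9b, an adhesion molecule of inhibitory synapses, at 621 and 592 CPM against 436 and 295 CPM (-0.73, adjusted p = 0.0407). Pclo, Piccolo of the presynaptic active zone, was at 349 and 346 CPM in NT and 247 and 238 CPM in S586A (-0.52, adjusted p = 0.0352). All 4 were higher in each NT library than in each S586A library, as no called gene overlapped between the groups. With length-trend offsets Tanc1, Shisa6 and Igsf9b were at -0.62, -0.67 and -0.48 and lost their calls (adjusted p = 0.109, 0.119 and 0.324, edgeR). Shisa6 was at -0.30 with effective-length offsets (adjusted p = 0.8, edgeR). Spred2, an inhibitor of Ras and ERK signalling, was at 53.8 and 76.4 CPM against 39.5 and 36.4 CPM (-0.78, adjusted p = 0.0174), and Mest, an imprinted hydrolase gene, at 112 and 144 CPM against 87.0 and 73.3 CPM (-0.68, adjusted p = 0.0350).

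The remaining protein-coding falls, apart from Slc1a2 below, lay outside the naming rule, and some are given here after their values were seen. They include the histone methyltransferase genes Kmt2d (-0.53; 256 and 258 CPM in NT, 177 and 178 CPM in S586A) and Setd1b (-0.48), Tet3, which oxidizes methylated cytosine (-0.42), the transcriptional repressor Spen (-0.45) and the zinc-finger factors Zbtb20 (-0.62), Hivep1 (-0.62) and Hivep3 (-0.64). Dync1h1, the heavy chain of the microtubule motor dynein (-0.43; 1330 and 1513 CPM against 1066 and 1050 CPM), Dst, a cytoskeletal linker (-0.43), Enah, an actin regulator (-0.54), Nav1 (-0.48) and Mical3 (-0.33) fell as well. So did Ntrk3, a neurotrophin receptor (-0.54), and Adcy5, an adenylyl cyclase (-0.44). None of these reached a log2 fold change of -1, and among them Enah alone passed with length-trend offsets. There Dync1h1 was at -0.14 (adjusted p = 0.685, edgeR), Dst at -0.16 (0.605), Tet3 at -0.20 (0.435) and Kmt2d at -0.25 (0.484). Zbtb20 was at -0.22 with effective-length offsets (adjusted p = 0.629).

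**Figure D2:**
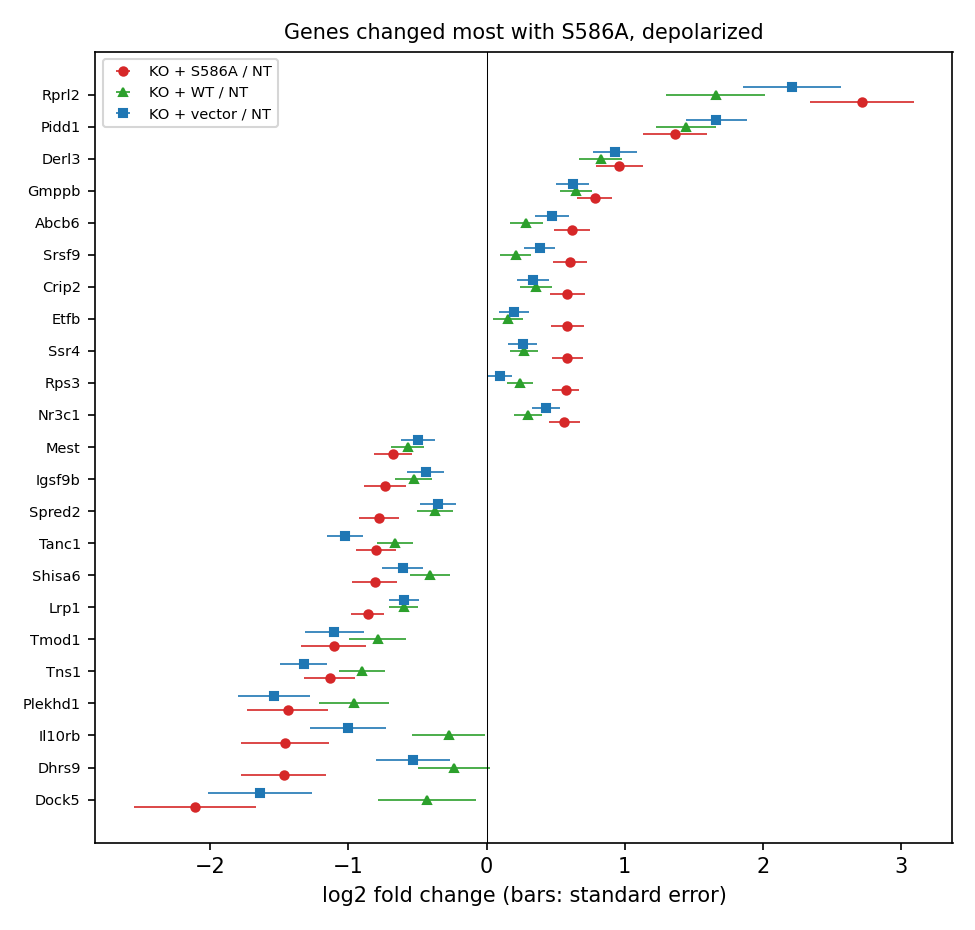
Points are log2 fold changes of depolarized KO neurons with S586A, WT or vector against NT, with bars for the standard error, for the 23 named genes other than Smarcc2 that changed most with S586A. All 3 comparisons use the same NT libraries, so their points are not independent. Rprl2 and Pidd1 lie furthest to the right, and Dock5, Dhrs9 and Il10rb furthest to the left.

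The same genes are given side by side in the other 2 depolarized comparisons, which share the NT libraries with S586A and so are not independent of it. Against NT, 560 genes were called with vector (2.67%) and 42 with WT (0.201%). Over the 50 falls the median log2 fold change was -0.54 with S586A, -0.38 with vector and -0.38 with WT. Over the 13 protein-coding rises other than Smarcc2 together with Rprl2 it was 0.58 with S586A, 0.41 with vector and 0.29 with WT. Both sets were chosen by their S586A values, which favours larger changes there. Pidd1 was at 1.36, 1.66 and 1.45 with S586A, vector and WT, Tns1 at -1.13, -1.32 and -0.90, and Lrp1 at -0.86, -0.60 and -0.60. Dock5 was at -2.11, -1.64 and -0.43, and Dhrs9 at -1.47, -0.53 and -0.24.

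The differences between constructs were tested directly. Between S586A and WT, 0 of 20940 genes were called (0.0%) by edgeR, with 1824 at an unadjusted p under 0.05 (8.71%) and 19 called by DESeq2. Smarcc2 itself was 0.54 higher on the log2 scale with S586A than with WT (95% interval 0.26 to 0.83, adjusted p = 0.338, edgeR). Dock5 was 1.68 lower on that scale (-1.68, interval -2.55 to -0.80) and Dhrs9 1.23 lower (-1.23, interval -1.83 to -0.63), with adjusted p = 0.338 and 0.304. For Lrp1 the difference was -0.26 (interval -0.49 to -0.03) and for Tns1 -0.23 (interval -0.60 to 0.13). Dock5, Dhrs9, Lrp1 and Tns1 were picked as large falls in the same S586A libraries, which by itself favours differences below 0. The intervals are not adjusted for that choice or for the number of genes, and a missed threshold does not show that the constructs act alike.

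Between S586A and vector, 2 genes were called (0.00955%), Smarcc2 (4.66 higher, adjusted p = 4.71e-13, edgeR) and Pgk1. Pgk1, an enzyme of glycolysis (chromosome X, 106187100 to 106203699), was at 528 and 452 CPM in NT, 601 and 665 CPM in S586A, and 1525, 1367 and 1671 CPM with vector. The vector libraries stood apart from all the others, and the WT libraries, at 597, 543 and 506 CPM, lay near NT. The log2 fold change of S586A against vector was -1.26 (adjusted p = 4.02e-06, edgeR) and of S586A against NT 0.37 (adjusted p = 0.156). At an unadjusted p under 0.05, 2730 genes (13.0%) passed between S586A and vector, and DESeq2 called 208.

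The 25 processed pseudogenes among the rises are reverse-transcribed gene copies, and they were named after their values were seen. Of 618 processed pseudogenes tested, 25 were called (4.05%), all higher, with log2 fold changes from 1.94 to 4.45 (median 2.87). Of the 25, 24 had a similar protein-coding gene, mostly of ribosomal proteins, translation elongation factors (Eef1a1, Eef1d, Eef1g) or Npm1, at 75.6% to 99.6% identity (median 93.4%). Because reads can be divided between such copies and their parents, the levels of single pseudogenes are uncertain. None of the nearest coding genes was called, and their log2 fold changes ran from -0.11 to 0.54 (median 0.20).

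Gm9644 (chromosome 8, 75274482 to 75275664), a copy of the ribosomal protein gene Rpl3 at 92.3% identity, serves as an example. The first 60 bases of its transcript are printed beside the matching bases 85 to 144 of Rpl3, with the 6 differences in capitals, to show how far a read can tell them apart.
Gm9644: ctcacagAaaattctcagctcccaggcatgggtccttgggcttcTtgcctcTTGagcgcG
Rpl3: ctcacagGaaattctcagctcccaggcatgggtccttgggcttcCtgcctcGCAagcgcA
Gm9644 was at 0.948 and 1.49 CPM in NT and 8.84 and 12.4 CPM in S586A (log2 fold change 3.13, SE 0.364, adjusted p = 6.04e-04, edgeR). Both S586A libraries lay well above NT, on counts of 20 or more in each library. Rpl3 was at 22.1 and 24.7 CPM against 31.5 and 36.5 CPM (0.54, adjusted p = 0.172). Gm5643, a copy of the RNA-binding protein gene Hnrnpa1 at 98.4% identity, was at 0.663 and 1.28 CPM in NT and 10.0 and 12.6 CPM in S586A (3.55, adjusted p = 6.04e-04).

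Summed over the 25 pseudogenes, the level was 15.4 and 16.3 CPM in NT and 95.7 and 128 CPM in S586A. The 6 depolarized libraries with vector or WT lay between, at 60.3 to 83.3 CPM. The resting libraries did not enter the comparison that chose these genes, but shared its low-count filter and its estimate of the spread. Genes could pass that filter through knockout libraries where they were high, so the resting values are not independent of the choice. At rest the 2 NT libraries were at 13.2 and 13.4 CPM and the 8 knockout libraries at 63.0 to 107 CPM. No knockout library of either state overlapped any NT library. In the resting S586E neurons 23 of the 25 were called higher than in resting NT neurons (92.0%), where 1.04% of all genes tested were called higher. For the reason just given, this count is not an independent test of the 25. The ribozyme gene Rprl2, a copy of the RNase P RNA at 92.1% identity to Rprl3, was at 1.28 and 0.907 CPM in NT and 6.75 and 7.75 CPM in S586A (2.71, adjusted p = 0.00323, edgeR). All 618 processed pseudogenes tested summed to 4786 and 4220 CPM in NT and 4981 and 5413 CPM in S586A. In the sum of the 25, the depolarized WT libraries were at 60.3, 67.7 and 75.8 CPM, with Smarcc2 RNA above that of NT. The parts of the guide and of the loss of Smarcc2 in these sums were not tested.

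**Figure D3:**
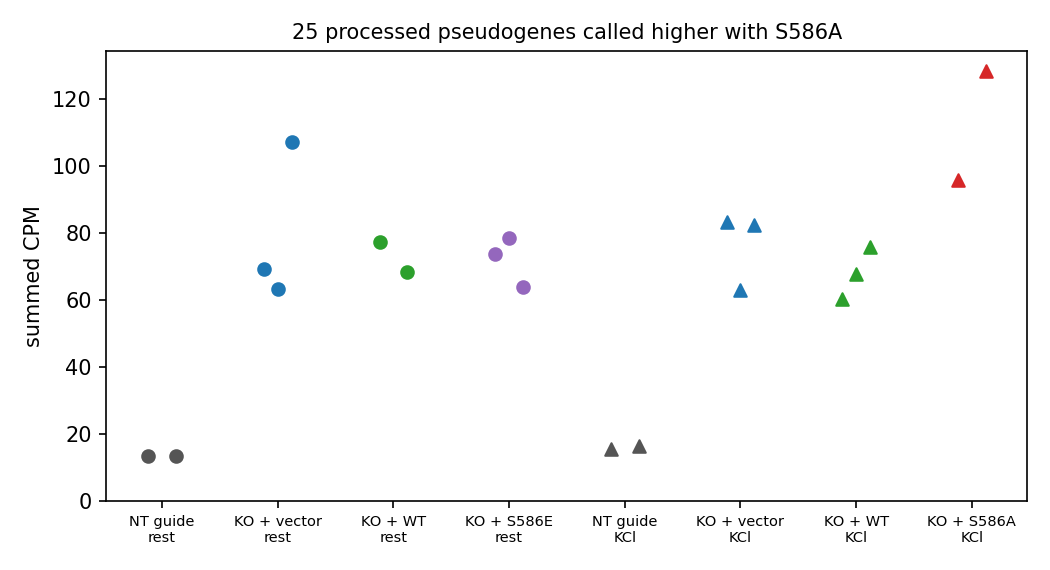
Each point is 1 library of the DIV18 cultures (DIV, days in vitro), at rest (circles) or after KCl (triangles), and the axis is the summed CPM of the 25 pseudogenes called higher with S586A. The 4 NT libraries lie at 13.2 to 16.3 CPM and the 16 knockout libraries at 60.3 to 128 CPM, with the highest in S586A. The comparison of the S586A and depolarized NT libraries chose the 25 genes, and all libraries shown shared its low-count filter.

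Changed genes differed in length. The median effective length, the number of positions where a fragment can start, was 5476 bases over the 50 falls, 660 bases over the 40 rises and 2136 bases over all genes tested. The genes were divided into 5 length classes of equal size. Of the falls, 36 lay in the longest class, and of the rises, 28 lay in the shortest. The trend ran through all genes: the median log2 fold change from the shortest to the longest class was 0.12, 0.06, 0.01, -0.05 and -0.13. With vector against NT the same medians were 0.05, 0.03, 0.03, 0.02 and -0.02, and with WT 0.08, 0.05, 0.03, -0.00 and -0.06.

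The libraries showed the same lean. Genes of the longest class took 33.7% and 33.3% of the counts in the depolarized NT libraries and 31.0% and 29.9% in S586A. Those of the shortest class took 15.4% and 15.9% in NT and 18.3% and 18.5% in S586A. When each library's trend with gene length was removed by offsets, 42 genes were called, 35 higher and 7 lower. Of the original calls, 30 rises and 6 falls passed there, the falls being Lrp1, Tns1, Spred2, Enah, Gm3892 and Gm44775. The median of the 50 falls moved from -0.54 to -0.39 and that of the 40 rises from 2.56 to 2.45. Pclo moved from -0.52 to -0.21 and lost its call (adjusted p = 0.637, edgeR). With offsets from the deposited effective lengths, 32 genes were called, 21 higher and 11 lower. Whether length-related RNA quality or library preparation took part in the falls was not tested.

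**Figure D4:**
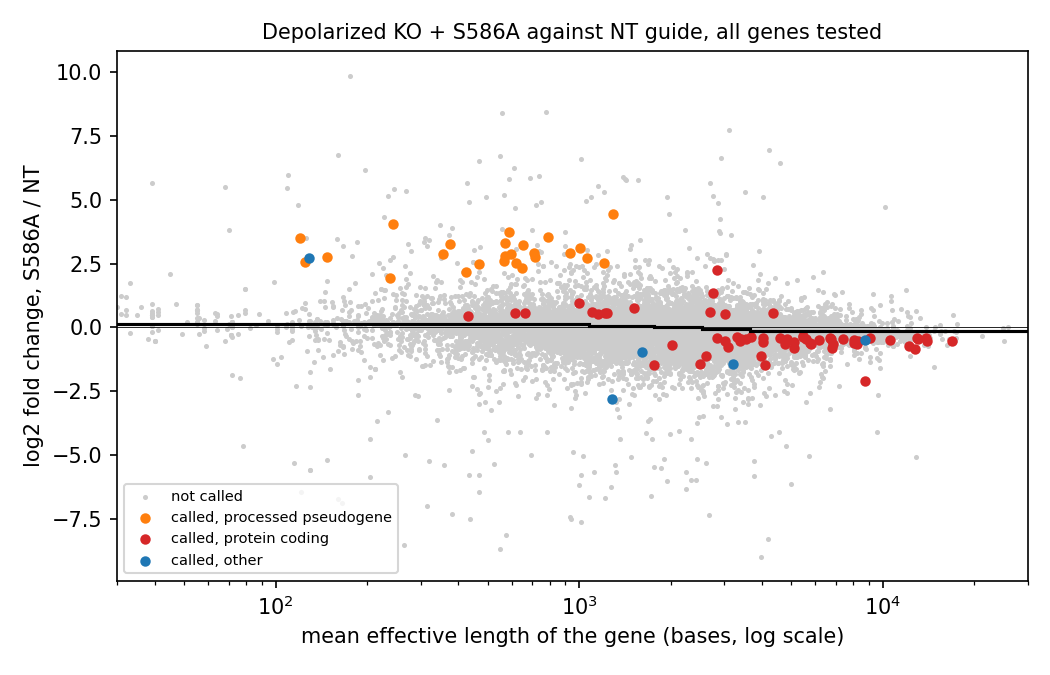
The log2 fold change of S586A against NT is plotted against the mean effective length of each gene in bases (log scale) for the genes tested, leaving out those beyond the ends of the axis. Coloured points are the called genes by class, and black lines are the medians of the 5 length classes, from 0.12 to -0.13. Called pseudogenes lie to the upper left, and most called protein-coding genes lie below 0 on the right.

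Early-response genes, the direct readout of depolarization, were not called in either direction at the usual filter. Of 19 on the list, all were tested, 0 were called and 0 had an unadjusted p under 0.05 in edgeR, where 11.8% of all genes tested did. DESeq2 called 0, and 12 of 19 were higher in S586A (median 0.15). With low-count genes kept in the fit, edgeR called 3 of 19, and 9 had an unadjusted p under 0.05. Of all 41147 genes in that fit, 653 were called and 3251 had an unadjusted p under 0.05. Fos was at 113 and 38.5 CPM in NT and 99.8 and 101 CPM in S586A (log2 fold change 0.40, SE 0.530, adjusted p = 0.823, edgeR). Npas4, a neuronal activity-dependent transcription factor, was at 53.3 and 13.1 CPM in NT and 49.2 and 42.4 CPM in S586A (0.46, adjusted p = 0.815). Arc, a synaptic immediate-early gene, was at 212 and 102 CPM against 192 and 189 CPM (0.28, adjusted p = 0.837). In all 3 genes the S586A values lay between the 2 NT libraries.

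The replicates of a group differed widely on this list. It summed to 1450 and 810 CPM in NT and 1370 and 1214 CPM in S586A, and to 2033, 1328 and 698 CPM with WT. Egr1 was at 251 and 156 CPM in NT and 244 and 197 CPM in S586A (0.12, adjusted p = 0.925), and Fosb at 135 and 51.9 CPM against 128 and 105 CPM (0.32, adjusted p = 0.777). The list median was 0.50 without NT replicate 1 and -0.19 without NT replicate 2, so the sign depended on which NT library was used. The highest log2 fold change of the list was that of Egr4 (0.61, unadjusted p = 0.0963) and the lowest that of Jun (-0.40, unadjusted p = 0.230). Of 12 late-response genes, 0 were called and 0 had an unadjusted p under 0.05 (edgeR), with a median of 0.00 and Bdnf, a neurotrophin, at -0.49 (adjusted p = 0.647). Clca1, which the labels' protocols name as a gene induced by excitotoxicity, was at 0.142 and 0.480 CPM in NT and 0.204 and 0.231 CPM in S586A, close to the limit of detection.

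**Figure D5:**
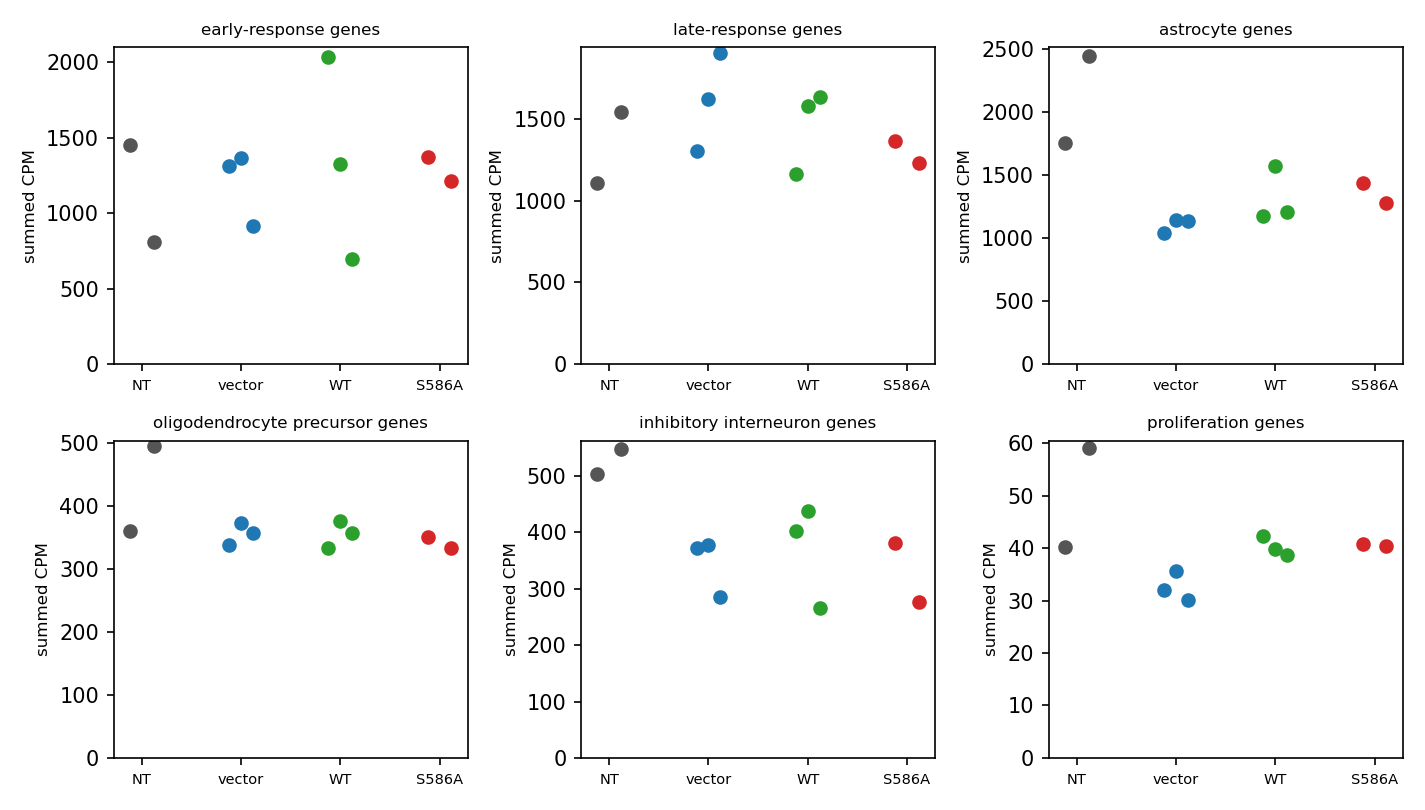
Each panel plots the summed CPM of 1 gene list in each depolarized library, for NT and for knockout neurons with vector, WT or S586A. For the early-response list the 2 NT libraries, at 1450 and 810 CPM, lie on either side of the S586A libraries at 1370 and 1214 CPM. The upper NT point in the astrocyte, oligodendrocyte precursor and proliferation panels is NT replicate 2.

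Several marker lists of other cell types had lower sums in S586A than in NT, mainly against NT replicate 2. In bulk RNA, fewer cells of a type and less RNA per cell cannot be told apart. All 16 astrocyte genes had negative log2 fold changes (median -0.63), and the list summed to 1753 and 2443 CPM in NT and 1437 and 1280 CPM in S586A. Slc1a2, the main glial glutamate transporter, was the 1 called: it was at 1057 and 1234 CPM in NT and 766 and 695 CPM in S586A (-0.65, SE 0.140, adjusted p = 0.0484, edgeR). Gfap was at 84.7 and 311 CPM in NT and 99.7 and 87.1 CPM in S586A, level with NT replicate 1 and far below NT replicate 2. The list median ran from -0.40 without NT replicate 2 to -0.89 without S586A replicate 1, and no member was called when any 1 of the 4 libraries was left out. Slc1a2 missed the threshold in 10 of 12 alternatives, with adjusted p = 0.0735 without NT replicate 1 and 0.504 without S586A replicate 2. Without the low-count filter, 10 of the 16 were called, where 653 of all 41147 genes were. Against the same NT libraries the astrocyte median was -1.21 with vector and -0.75 with WT, so the fall was not particular to S586A.

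Oligodendrocyte precursor genes had a median of -1.12, with 0 of 14 called and 7 at an unadjusted p under 0.05, all lower (edgeR). DESeq2 called 1. Among all genes tested, 11.8% had such a p in edgeR, and 6.23% were lower with it. Pdgfra, the receptor that marks these cells, was at 1.42 and 13.5 CPM in NT and 2.15 and 1.04 CPM in S586A. Olig1 was at 6.68 and 24.4 CPM against 6.90 and 4.46 CPM, and Gpr17 was at 0 in both S586A libraries, against 0.0474 and 0.854 CPM. The list summed to 360 and 495 CPM in NT and 350 and 333 CPM in S586A, and its median was -0.24 without NT replicate 2. Of 12 proliferation genes 0 were called and 4 had an unadjusted p under 0.05, with a median of -0.61 that became -0.06 without NT replicate 2. Mki67 was at 1.75 and 10.2 CPM in NT and 1.58 and 0.289 CPM in S586A. Against the same NT libraries the oligodendrocyte precursor median was -1.59 with vector and -0.75 with WT. For the proliferation list these medians were -1.23 and -0.49. The part of these cell types in the calls was not tested.

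Genes of inhibitory interneurons had a negative median against either NT library. Of 16 tested, 0 were called, 5 had an unadjusted p under 0.05, all lower, and 15 of 16 log2 fold changes were negative (median -0.62, edgeR). Of all genes tested, 6.23% were lower with such a p. The list summed to 504 and 548 CPM in NT and 382 and 277 CPM in S586A, without overlap. Its sums varied widely within resting groups, at 450 and 330 CPM in NT and 647, 449 and 230 CPM with vector. They were 516 and 344 CPM in resting WT and 562, 476 and 386 CPM in resting S586E neurons. Gad1, which makes GABA, was at 113 and 121 CPM in NT and 84.8 and 65.0 CPM in S586A (-0.64, unadjusted p = 0.0270, adjusted p = 0.347). The median was -0.67 without NT replicate 1, -0.57 without NT replicate 2, -0.82 without S586A replicate 1 and -0.42 without S586A replicate 2, where 0 had an unadjusted p under 0.05. With low-count genes kept in the fit, 7 of 16 were called and 11 had an unadjusted p under 0.05. Of all 41147 genes in that fit, 653 were called and 3251 had an unadjusted p under 0.05. Reln, which interneurons secrete, was at 35.9 and 31.8 CPM against 28.1 and 5.67 CPM, lowest in S586A replicate 2. The medians of the list were -0.64 with vector and -0.51 with WT, from the same NT libraries.

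Among genes of excitability, 14 of 30 potassium channel genes had an unadjusted p under 0.05, where 11.8% of all genes did. Of the 30, 0 were called by edgeR and 2 by DESeq2, which called 334 of all 20940 genes tested. Of these 14, 10 were lower and 4 higher. Kcnc2, of the fast-spiking Kv3 family, was at 23.8 and 27.9 CPM in NT and 16.2 and 10.6 CPM in S586A (-0.94, adjusted p = 0.111). Kcnma1, the calcium-activated BK channel, was at 425 and 495 CPM against 350 and 372 CPM (-0.35, adjusted p = 0.111). Kcnip4, an accessory subunit of Kv4 channels, was at 26.3 and 19.3 CPM against 36.1 and 33.2 CPM (0.60, adjusted p = 0.165). The groups did not overlap in any of the 3 genes, as in 42.4% of all genes tested. The list median of -0.21 became -0.06 with length-trend offsets, with 6 members at an unadjusted p under 0.05.

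The calcium and sodium channel list had 7 of 24 at an unadjusted p under 0.05, beside 11.8% of all genes tested. Of the 24, 0 were called by edgeR (3 by DESeq2), and the median of -0.16 was 0.00 with length-trend offsets. Of 23 glutamate receptor genes 0 were called by edgeR (1 by DESeq2) and 4 had an unadjusted p under 0.05, all lower, beside 6.23% of all genes tested. Their median was -0.22, or -0.07 with length-trend offsets. Grin2b, an NMDA receptor subunit, was at 1262 and 1496 CPM against 1012 and 1047 CPM (-0.42, adjusted p = 0.109). GABA-A receptor genes had a median of -0.03, with 0 of 12 called and 1 at an unadjusted p under 0.05 (edgeR).

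Of 28 genes of synaptic vesicles and release, Pclo was the 1 called by edgeR (3 by DESeq2), and 8 had an unadjusted p under 0.05. Such a p was found for 11.8% of all genes tested, and 6.23% were lower with it. None was called with either length correction, with only the groups compared or without any 1 library, and the median of -0.12 was -0.03 with length-trend offsets. The calcium sensors Syt4 (0.32) and Syt5 (0.36) were higher, with adjusted p = 0.125 and 0.109 (edgeR), while Bsn, Bassoon of the active zone, was at 1009 and 899 CPM in NT and 719 and 689 CPM in S586A (-0.44, adjusted p = 0.296). Of 28 postsynaptic scaffold and adhesion genes 0 were called by edgeR (3 by DESeq2), and 7 had an unadjusted p under 0.05, all lower (median -0.15, or -0.02 with length-trend offsets, where 3 did). Of 30 extracellular matrix genes 0 were called by edgeR (3 by DESeq2) and 10 had an unadjusted p under 0.05, all lower, beside 6.23% of all genes tested (list median -0.49). This median was -0.67 without S586A replicate 1 and -0.19 without S586A replicate 2, 1 gene was called without NT replicate 1, and 8 were called without the low-count filter. Among these, Ncan, neurocan of the perineuronal matrix, was at 687 and 672 CPM in NT and 490 and 444 CPM in S586A (-0.54, adjusted p = 0.0958).

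Cytoplasmic ribosomal protein genes, a list added after the values were seen, leaned the other way. Of 80, 2 were called, Rps3 and Rpl13a, and 45 had an unadjusted p under 0.05, all higher, beside 5.58% of all genes tested. Their median log2 fold change was 0.26, with 75 of 80 above 0, and the median was 0.12 with WT and -0.06 with vector against the same NT libraries. The list summed to 7706 and 7162 CPM in NT and 8561 and 9204 CPM in S586A. Single libraries of other groups reached the lower S586A value. The sums were 7560 and 8608 CPM in resting NT and 8653, 7734 and 7723 CPM in depolarized WT neurons. The median was 0.19 without NT replicate 2 and 0.29 without NT replicate 1. The genes of this list are short, and the median was 0.15 with length-trend offsets, where 15 had an unadjusted p under 0.05. Glycolysis genes had a median of 0.15, with 0 of 20 called by edgeR and 1 by DESeq2. In edgeR 2 had an unadjusted p under 0.05, beside 11.8% of all genes tested. The glycolysis median was 0.01 without NT replicate 2 and 0.30 without NT replicate 1, where 8 had an unadjusted p under 0.05.

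The remaining lists held no called gene in edgeR at the usual filter, while DESeq2 called 1 gene each of axon guidance and cholesterol synthesis. Without the low-count filter, edgeR called 3 pan-neuronal, 2 excitatory, 3 Notch, Wnt and BMP, 2 axon guidance, 4 neuropeptide, 1 cholesterol and 1 mitochondrial gene. It called 653 of all 41147 genes there. Pan-neuronal markers had a median of -0.16, with 5 of 12 at an unadjusted p under 0.05, all lower, among them the neurofilament gene Nefl (-0.54, adjusted p = 0.291). For this and the following counts, 11.8% of all genes tested had such a p, and 6.23% were lower with it. Excitatory and layer identity genes had a median of -0.07 (3 of 18 at an unadjusted p under 0.05), genes of the Notch, Wnt and BMP pathways -0.22 (7 of 30), axon guidance and cadherin genes -0.16 (6 of 32) and neuropeptides and their receptors -0.21 (1 of 28). Genes of cholesterol synthesis had a median of -0.13 (2 of 20), interferon-response genes 0.04 (1 of 10) and mitochondrially encoded genes -0.13 (0 of 13). Microglia genes had a median of -0.56 (1 of 6 tested) and summed to 29.5 and 33.8 CPM in NT and 30.4 and 27.5 CPM in S586A. Myelin genes had a median of 0.09 (1 of 9), and genes of fibroblasts and vessels -0.28 (1 of 9), at sums of 18.7 and 16.7 CPM in NT and 21.8 and 12.3 CPM in S586A. Several of these medians rested on 1 library. The neuropeptide median was -0.43 without S586A replicate 1, -0.04 without S586A replicate 2 and -0.07 without NT replicate 2, and the microglia median -0.18 without NT replicate 2 and -0.25 without S586A replicate 2. The Notch, Wnt and BMP median was -0.52 without S586A replicate 1 and -0.13 without S586A replicate 2, the axon guidance median -0.28 without NT replicate 1, and the cholesterol median -0.01 without NT replicate 2.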

How the data were processed

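RNA of 24 mouse cortical neuron libraries was sequenced, and 20 of 18 days in vitro were fitted; the 4 of day 7 came from poly(A)-selected RNA and were not used. The deposited tables give, per the file headers, estimated counts, TPM and effective length per transcript. The authors' estimated counts are assignments of reads to transcripts, and cutadapt, FastQC and kallisto are listed in the submitters' processing notes. The deposited TPM values served only to weight transcript lengths. Genome build and annotation of the files are not given in the sources used here.

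Of 142552 transcripts, 141429 (99.2%) matched GENCODE M21 (GRCm38); unmatched ones, dropped here, made up no more than 0.467% of any library. Estimated counts were summed over 55177 genes and rounded to whole numbers. edgeR 4.0.16 (R 4.3.3) fitted 8 groups with TMM normalisation, filterByExpr, the quasi-likelihood F test (two-sided) and Benjamini-Hochberg adjustment over all 20940 genes, leaving 12 residual degrees of freedom and a common biological coefficient of variation of 14.6%. The test was first tested on simulated data.

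The comparison and the gene lists were chosen with earlier results of these data known. Named genes are Smarcc2, Smarcc1, Clca1, Fos, Fosb, Npas4, Egr1 and Arc, the 12 largest rises and 12 largest falls among called genes (averaging 1 CPM or more, groups not overlapping, predicted genes, clones and pseudogenes passed over), up to 6 called members of each list, and up to 5 called genes of each direct comparison. Further genes named from lists were chosen after their values were seen. Other settings tried were DESeq2 1.42.0, size factors by median of ratios, no low-count filter, offsets from effective lengths, a replicate block, a fit of the compared groups alone, dropping single libraries and, chosen after seeing the data, length-trend and GC-trend offsets. Leaving out a library of a pair leaves a lone sample, assumed to vary like the other groups. Pseudogenes were matched to their nearest transcript by sequence alignment.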

Additional observations from a re-analysis of the deposited data

How the results depend on the processing

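The count of 90 genes called between S586A and NT was 78 with median-of-ratios size factors, 69 with GC-trend offsets (chosen after seeing the data, as were length-trend offsets), 653 without the low-count filter, 334 with DESeq2, 32 with effective-length offsets, 42 with length-trend offsets and 12 with only the groups compared, and ran from 4 to 75 when 1 library was left out. Called genes went from 0 to 225, 19 and 22 (S586A against WT; no filter, DESeq2, only these groups; 0 to 1 without 1 library) and from 2 to 531 and 208 (S586A against vector; no filter, DESeq2; 2 to 10 without 1 library). Without the filter, with DESeq2 and with effective-length offsets, the counts were 1437, 943 and 278 for vector against NT (main 560; 37 to 241 without 1 library), 704, 277 and 13 for WT against NT (main 42; 5 with only these groups; 1 to 9 without 1 library) and 1582, 1107 and 168 for S586E against NT at rest (main 583; 3 to 539 without 1 library). With the replicate number as a block, S586A against NT gave 82 calls, 75 of them among the 90, and the other comparisons with NT gave 337 (vector), 23 (WT) and 260 (S586E). The deviations of same-numbered NT and S586A libraries correlated at 0.038 over 14933 genes in 2 pairs. The neuropeptide list nevertheless ran with the number after KCl. Its sums were lowest in replicate 1 of every depolarized group, at 1556 and 2472 CPM in NT and 1606 and 1821 CPM in S586A. At rest replicate 1 was lowest with vector and with S586E. It was the higher in resting NT (1729 and 1216 CPM) and resting WT (1750 and 1604 CPM). Whether same-numbered libraries shared a batch or an embryo was not tested. Smarcc2 passed in every alternative run, as did Gm9644, Gm5643 and Gm12912.

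Signs turned when single libraries were left out: without NT replicate 2 against without NT replicate 1, the log2 fold change was -0.21 and 1.17 for Fosb, -0.18 and 1.38 for Fos, -0.15 and 0.90 for Arc, -0.19 and 0.50 for Egr1, -0.22 and 1.81 for Npas4, and 0.59 and -1.12 for Clca1. Egr1 was at -0.03 without S586A replicate 1. List medians turned for early-response (-0.19 without NT replicate 2), fibroblast and vessel (0.43 without S586A replicate 2, 0.11 without NT replicate 1), mitochondrial (0.10 without S586A replicate 1), excitatory (0.02 without S586A replicate 1 and without NT replicate 2), myelin (-0.10 without S586A replicate 1, -0.14 without NT replicate 1) and interferon-response genes (-0.06 without NT replicate 1); late-response and BAF-type medians, near 0, changed sign as well. Of the values of single genes and lists under alternatives, 900 kept their side of the threshold, 531 were no longer past it, 2 passed newly and 59 counts moved by over 1.5 times. The causes were not tested. With 2 libraries a group, small changes were not detectable with certainty.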
